A study of Mus musculus with 6 samples.

Results

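The primary cilium is a single, non-motile projection of the plasma membrane that many cells, osteoblasts (OBs) among them, build on a microtubule core and use as a sensor. Its transcripts were followed here through a list of 10 genes among the 23284 genes in the files, of which 9 are described, namely *Ift20*, *Ift80*, *Ift88*, *Kif3a*, *Kif3b*, *Pkd1*, *Pkd2*, *Bbs1* and *Bbs4*. The members were chosen by gene symbol, with no threshold on a value, but the list was drawn up with their FPKM on day 10 and day 14 already known, so the day differences of these genes are given as descriptions with their errors. The cells were ECFP+ OBs sorted from ectopic bone that had formed around BMP-2-containing collagen sponges (2.5 μg per implant) under the back skin of male *Col2.3*-ECFP mice aged 12 to 16 weeks. All mice carried the reporter, in which a type I collagen promoter switches on a cyan fluorescent protein in the OB lineage, and all implants carried BMP-2. The groups were day 10 after implantation (n = 3), when OBs were described as spindle-shaped, and day 14 (n = 3), when they were becoming cuboid, and the comparison asks which transcripts differed over this change of shape. CD45+ and dead cells were gated out on both days, while the bone was digested with collagenase 1 time for the earlier samples and 2 times for the later ones, and digestion and day therefore cannot be told apart. The titles place all 3 later samples on day 14, whereas the free-text descriptions give day 14, 15 and 16 for replicates 1, 2 and 3.

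A cilium is built and maintained by intraflagellar transport (IFT), in which trains of IFT-A and IFT-B proteins carry cargo along the axoneme. *Ift20*, *Ift80* and *Ift88* encode IFT-B subunits. IFT20 is also found at the Golgi apparatus, where it takes part in sorting membrane proteins to the cilium. KIF3A and KIF3B are the motor subunits of heterotrimeric kinesin-2, which drives the trains towards the tip. BBS1 and BBS4 belong to the BBSome, an adaptor that moves membrane receptors in and out of the cilium, and polycystin-1 (*Pkd1*) and polycystin-2 (*Pkd2*) form a receptor and channel complex in its membrane. In bone, cilia are known for their part in Hedgehog signalling and in the response to mechanical load.

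The values were FPKM, in which the reads of a gene are divided by the length of its transcript and the number of mapped reads in the sample, so levels of different genes can be set side by side per unit length. From the steps between low values, the depth was estimated at 4531927 to 7761279 reads per sample, and at this depth 3 reads on 1000 bases correspond to 0.387 to 0.662 FPKM, counting error only. The 7 OB markers (*Dlx5*, *Runx2*, *Sp7*, *Alpl*, *Col1a1*, *Ibsp* and *Bglap2*) were above 0 in all samples, with a mean *Col1a1* level of 26290 FPKM on day 10 and of 16990 FPKM on day 14. All 7 had a lower mean on the log2 scale on day 14. The days did not overlap for only 1 of the 7, *Sp7*, against 14.3% of all genes. The sum of the 7 markers was 28370 to 54190 FPKM on day 10 against 15670 to 38270 FPKM on day 14. The part of this difference in the values of the cilium genes was not tested. Replicate 2 of day 14 stood apart from its group, and all 7 OB markers were higher in it than in replicates 1 and 3. *Dlx5* was at 9.84 FPKM, against 0.980 and 1.01 FPKM in replicates 1 and 3 and 7.56 to 9.88 FPKM on day 10. *Alpl* was at 1300 FPKM, against 273 and 186 FPKM, and at 809 to 1129 FPKM on day 10. Only *Sp7* was lower in replicate 2 than in every day 10 sample, so the lower OB markers came mostly from replicates 1 and 3. In replicate 2 the 10 chondrocyte markers summed to 2426 FPKM, against 173 and 231 FPKM in the other day 14 samples and 763 to 1584 FPKM on day 10. Its 8 myeloid markers summed to 11.5 FPKM, against 232 and 559 FPKM in the other day 14 samples and 31.3 to 135 FPKM on day 10. The log2 fold changes of the 9 genes are therefore also given without this library below.

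The 9 genes lie on 8 chromosomes of mm10 (GENCODE vM21), and all are protein-coding. *Ift20* is on the plus strand of chromosome 11 from 78536361 to 78541737, and *Pkd1* on the plus strand of chromosome 17 from 24549834 to 24596508. *Ift20* had the largest day difference of the 9 and *Pkd1* the smallest spread on day 10, and the bases before their start sites are shown for that reason. They are the stretches of the 250 bases upstream that no annotated exon covers, from RefSeq (GRCm38.p6), written 5′ to 3′ on the strand of the gene.
Ift20, chr11:78536333-78536360, plus strand: acttcccgtgtcgtagtccccgccccct
Pkd1, chr17:24549700-24549833, plus strand: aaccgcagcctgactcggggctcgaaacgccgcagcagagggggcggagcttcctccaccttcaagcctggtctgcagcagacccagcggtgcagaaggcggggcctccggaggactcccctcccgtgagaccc

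The *Ift20* stretch is only 28 bases long because exons of *Tnfaip1* cover the bases further upstream. Neither stretch holds GTTGCC, a half-site of the X-box bound by RFX factors. Some members of this transcription factor family are known for activating ciliary genes. Over windows of 300 bases around the start site and on both strands (GTTGCC or GGCAAC), 3 of the 8 described members with a RefSeq window held the half-site, namely *Kif3a*, *Ift88* and *Bbs1*. The half-site was present in 12.5% of all 32851 windows and in 30.9% of the 110 windows of other cilium genes. A full X-box was found in 1 of the 8 windows, that of *Bbs1*, where it contains the half-site, against 1.53% of all windows and 7.27% of those of other cilium genes. These matches are letters in a window and not measured binding.

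All 9 genes were above 0 in all 6 samples and passed the filter of a mean above 0.1 FPKM, and their levels spanned about 2 orders of magnitude. *Ift20* was highest, with a mean of 78.1 FPKM over the 6 samples, and was followed by *Pkd2* (42.7 FPKM) and *Pkd1* (23.9 FPKM). *Kif3a* (2.94 FPKM), *Kif3b* (2.79 FPKM), *Ift80* (2.41 FPKM) and *Bbs4* (2.37 FPKM) formed a middle tier, and *Ift88* (0.806 FPKM) and *Bbs1* (0.764 FPKM) were lowest. Within each of these last tiers the sample ranges of neighbouring genes overlapped, so their order is not fixed beyond the spread. *Ift20* and *Pkd2* also overlapped in range, at 44.5 to 129.5 and 38.4 to 51.8 FPKM, although *Ift20* was above *Pkd2* in all 6 samples. The ranges of *Pkd2* and *Pkd1*, of *Pkd1* and *Kif3a*, and of *Bbs4* and *Ift88* did not overlap. When all listed genes were ordered by their mean on day 10, *Ift20* ranked 558, *Pkd2* 1423, *Pkd1* 2435 and *Bbs1* 11605.

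**Figure D1:**
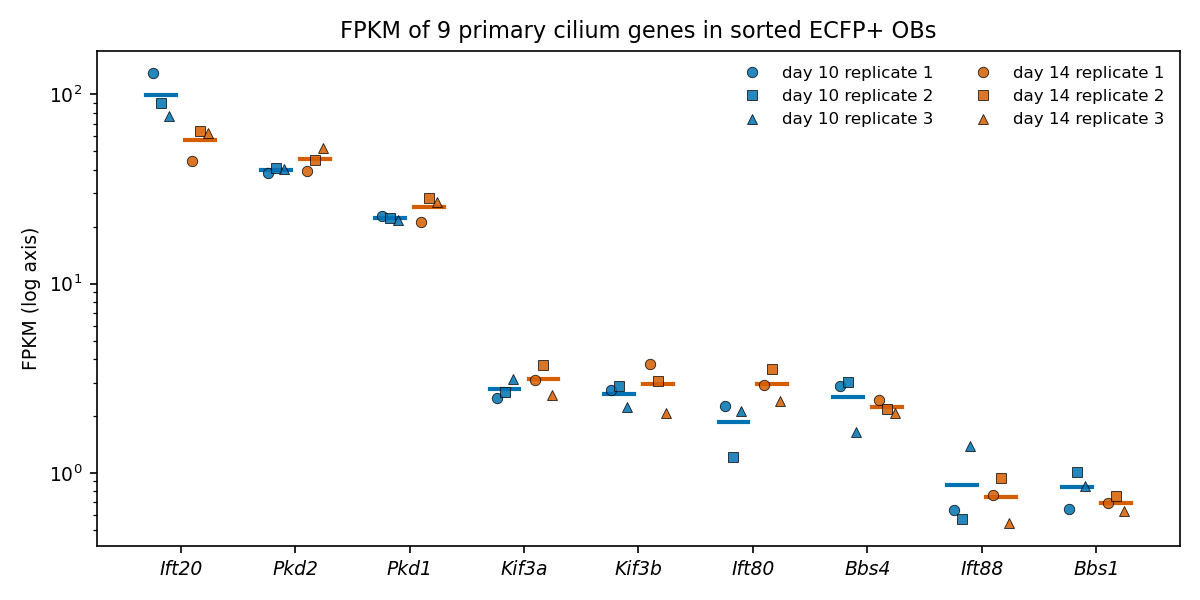
FPKM (log axis) of 9 primary cilium genes in the 3 day 10 samples (blue) and the 3 day 14 samples (orange), with the shape giving the replicate number and the bar the mean of the day. *Ift20*, *Pkd2* and *Pkd1* lie above the other genes in every sample, and the days are apart for *Ift20* and *Ift80*.

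The subunits of a single machinery were far from equal in level. *Ift20* exceeded *Ift88* by 55.7 to 202 times in the same sample and *Ift80* by 15.2 to 74.2 times, although all 3 encode subunits of one complex. The kinesin-2 motors were close to each other, with a *Kif3a* to *Kif3b* ratio of 0.825 to 1.40 and *Kif3a* the higher gene in 3 of the 6 samples. The polycystins kept the narrowest ratio, with 1.58 to 1.91 times as much *Pkd2* as *Pkd1* in every sample. Estimated reads, which are approximate, ran from 184 to 581 for *Ift20* and from 1332 to 2655 for *Pkd1*. *Ift88* rested on only 8.99 to 30.7 estimated reads and *Bbs1* on 16.8 to 35.7, which makes their values the least precise.

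Between the days, *Ift20* was lower on day 14 (fold change 0.585), *Ift80* was higher in every day 14 sample by a smaller margin, and the other 7 genes had overlapping days. By mean on the log2 scale, 5 of the 9 were higher on day 14, against 46.5% of all genes tested. None of the 9 reached an adjusted p under 0.05 from limma over the 19526 genes tested, where 0.0154% of all genes did, and 1 of the 9 (*Ift20*) had an unadjusted p under 0.05, against 10.0% of all genes. The days did not overlap for 2 of the 9, against 14.3% of all genes, with 1 higher (7.59% of all genes) and 1 lower (6.67%), and a fold change over 2 was seen for 0 of the 9, against 13.6%. Without replicate 2 of day 14 the same 2 genes, 22.2% of the 9, had days that did not overlap, against 28.6% of all genes. The median log2 fold change of the 9 over the 6 samples was 0.14, and that of all genes tested was −0.04. In RNA from sorted cells, a change in the share of ciliated cells and one in ciliary RNA per cell cannot be told apart. These values do not measure cilia themselves.

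*Ift20* had 129.5, 90.2 and 77.1 FPKM in day 10 replicates 1, 2 and 3, and 44.5, 64.4 and 62.6 FPKM in day 14 replicates 1, 2 and 3, so that every later sample was below every earlier one. The means were 98.9 ± 27.3 FPKM on day 10 and 57.2 ± 10.99 FPKM on day 14 (SD, n = 3 each), with a log2 fold change of FPKM + 0.1 of −0.77 (standard error 0.23, 95% interval −1.30 to −0.24 without correction for the number of genes, adjusted p = 0.347 by limma). Two-sided exact permutation gave p = 0.1, the smallest value that 3 samples against 3 can give. Without day 14 replicate 2 the log2 fold change was −0.87 (adjusted p = 0.198 from limma). Without day 14 replicate 1, the lowest sample, it was −0.60, and without day 10 replicate 1, the highest sample, it was −0.56. *Ift20* made up 51.3% to 64.0% of the summed FPKM of the 9 genes on day 10 and 37.6% to 42.3% on day 14.

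**Figure D2:**
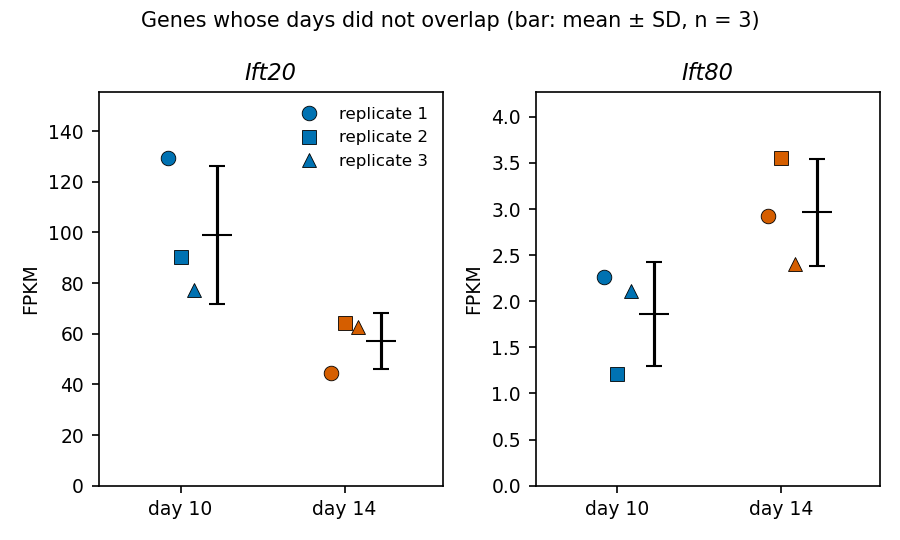
FPKM of *Ift20* and *Ift80* in the samples of day 10 (blue) and day 14 (orange), with the shape giving the replicate number and the black bar the mean ± SD (n = 3). All day 14 samples are below all day 10 samples for *Ift20* and above them for *Ift80*, where the gap is narrow.

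The other IFT-B members were *Ift80* on chromosome 3 (68892499 to 69004570) and *Ift88* on chromosome 14 (57424062 to 57517936). *Ift80*, whose loss causes a skeletal ciliopathy in humans, had 2.26, 1.22 and 2.12 FPKM on day 10 against 2.93, 3.56 and 2.40 FPKM on day 14. The days were apart by a narrow margin, since the highest day 10 sample (2.26 FPKM) nearly reached the lowest day 14 sample (2.40 FPKM). *Ift80* rested on only 25.9 to 81.0 estimated reads per sample. Its log2 fold change was 0.67 (standard error 0.33, 95% interval −0.09 to 1.43, limma adjusted p = 0.558), 0.53 without day 14 replicate 2 and 0.41 without day 10 replicate 2, its lowest sample (adjusted p = 0.845 from limma). *Ift88*, which is needed for axoneme assembly, had 0.639, 0.569 and 1.39 FPKM on day 10 against 0.761, 0.939 and 0.542 FPKM on day 14, and the days overlapped. Its interval from −1.25 to 1.01 on the log2 scale allows a 2-fold difference in either direction, and its log2 fold change was −0.12 with all samples and −0.28 without day 14 replicate 2. Its exons overlap the antisense gene *Ift88os*, so that without strand information reads of the pair cannot be told apart.

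Both kinesin-2 motors were near 3 FPKM. *Kif3a*, on chromosome 11 (53567379 to 53601967), had 2.496, 2.67 and 3.12 FPKM on day 10 against 3.09, 3.70 and 2.57 FPKM on day 14. *Kif3b*, on chromosome 2 (153291413 to 153333390), had 2.75, 2.88 and 2.22 FPKM on day 10 against 3.75, 3.08 and 2.06 FPKM on day 14. The samples of the days overlapped for both genes, and the log2 fold changes were 0.16 (95% interval −0.43 to 0.76, adjusted p = 0.896 by limma) and 0.14 (−0.55 to 0.83, limma adjusted p = 0.931). Without day 14 replicate 2 they were 0.034 for *Kif3a* and 0.094 for *Kif3b*. The mean ratio of *Kif3a* to *Kif3b* was 1.08 ± 0.279 on day 10 and 1.09 ± 0.232 on day 14 (SD, n = 3 each).

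The polycystin genes were the steadiest of the 9 on day 10, and their values spread more on day 14. *Pkd1* had 22.9, 22.3 and 21.7 FPKM on day 10, a coefficient of variation of 2.68%, and 21.1, 28.5 and 27.1 FPKM on day 14, one of 15.4%. *Pkd2*, on chromosome 5 (104459450 to 104505819), had 38.4, 41.1 and 40.3 FPKM on day 10 against 39.2, 45.2 and 51.8 FPKM on day 14, with coefficients of variation of 3.47% and 13.9%. For both genes replicate 1 of day 14 lay close to the day 10 level and the other 2 samples were above all day 10 samples. The log2 fold changes were 0.19 (95% interval −0.19 to 0.56, adjusted p = 0.781 by limma) for *Pkd1* and 0.18 (−0.17 to 0.52, limma adjusted p = 0.776) for *Pkd2*, the tightest intervals of the 9. Both values depended on single day 14 samples. The log2 fold change of *Pkd1* was 0.10 without day 14 replicate 2 and 0.32 without replicate 1 (adjusted p = 0.385 from limma), and that of *Pkd2* was 0.17 without replicate 2, 0.28 without replicate 1 and 0.076 without replicate 3. Exons of *Pkd1* overlap those of *Tsc2*, which was at 9.57 to 12.6 FPKM, so a part of the reads could belong to either gene.

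The BBSome members were low on both days. *Bbs4*, on chromosome 9 (59321990 to 59353508), had 2.88, 3.03 and 1.65 FPKM on day 10 against 2.44, 2.17 and 2.06 FPKM on day 14. *Bbs1*, on chromosome 19 (4886878 to 4906628), had 0.643, 1.01 and 0.857 FPKM on day 10 against 0.690, 0.750 and 0.630 FPKM on day 14, and was lower than *Bbs4* by 1.92 to 4.48 times in the same sample. The days overlapped for both, with log2 fold changes of −0.13 for *Bbs4* (95% interval −0.86 to 0.60, adjusted p = 0.939 by limma) and −0.23 for *Bbs1* (−1.20 to 0.74, adjusted p = 0.914 by limma). Without day 14 replicate 2 they were −0.12 and −0.28. Exons of *Bbs4* overlap those of *Adpgk*, which was at 17.4 to 25.9 FPKM.

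**Figure D3:**
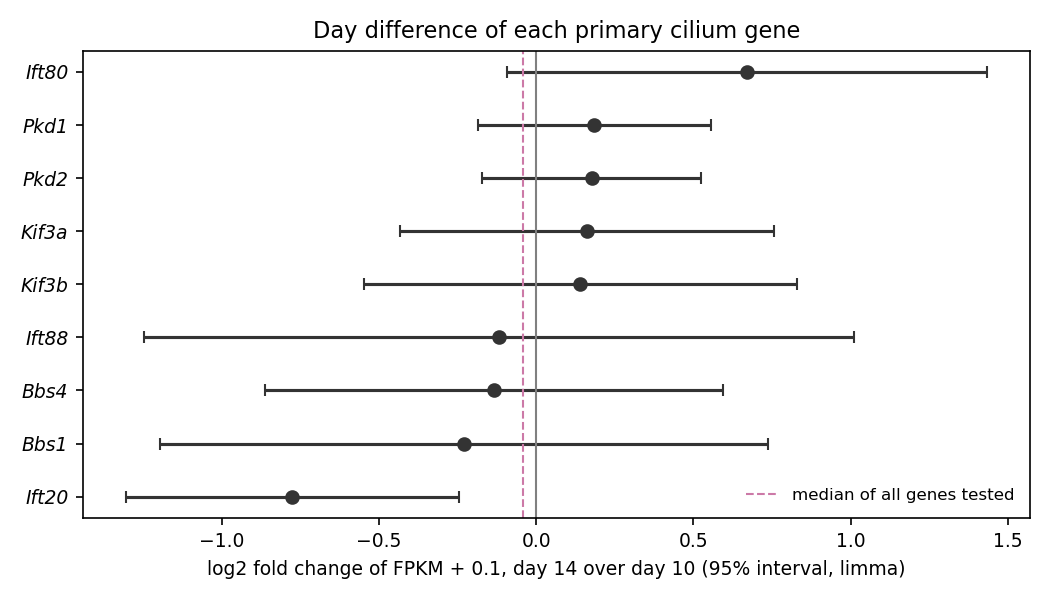
Log2 fold change of FPKM + 0.1 between day 14 and day 10 for each of the 9 primary cilium genes, as a point with limma's 95% interval (not corrected for the number of genes), beside 0 (grey line) and the median of all genes tested at −0.04 (dashed). Only the interval of *Ift20* (−1.30 to −0.24) does not cross 0.

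To set these genes beside the rest of the pathway, 105 other cilium genes in 12 lists were read from the same fit. None had an adjusted p under 0.05 from limma, 10 had an unadjusted p under 0.05 (3 higher and 7 lower on day 14, where 5.60% and 4.40% of all genes were), and 21 had days that did not overlap, against 14.3% of all genes. Their median log2 fold change was −0.02 and their summed FPKM was 570.1 to 639 on day 10 and 579 to 621 on day 14. The median of their mean levels was 2.84 FPKM, against 2.79 FPKM for the 9 genes.

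Most of the other IFT-B subunits had lower values on day 14, as *Ift20* did. Of 14 genes, 12 had a lower mean on day 14 on the log2 scale and the median log2 fold change was −0.31. Of all genes tested, 46.5% had a higher mean on day 14. In 4 of the 14 the days did not overlap, all with lower values on day 14, against 6.67% of all genes. *Ift22*, listed as *Rabl5*, had 13.1, 9.04 and 13.1 FPKM on day 10 against 8.09, 7.91 and 7.24 FPKM on day 14 (log2 fold change −0.58, adjusted p = 0.401 by limma). The other 3, named after their values were seen, were *Ttc26* (−0.65), *Cluap1* (−0.46) and *Ift52* (−0.29). *Ift27*, the highest of the list, had a mean of 21.7 ± 5.03 FPKM on day 10 and 26.3 ± 2.34 FPKM on day 14 (SD, n = 3; log2 fold change 0.30, limma adjusted p = 0.682). The 6 IFT-A subunits, which serve the return transport, were mostly a little higher on day 14 (5 of 6). Their days overlapped for all 6, the median log2 fold change was 0.11, and *Ift43*, listed as *1700019E19Rik*, was the highest at 27.3 ± 2.504 and 29.7 ± 2.17 FPKM (SD, n = 3). The log2 fold change was 0.22 for *Wdr35* and −0.12 for *Ttc21b*.

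Of 9 genes for the transport of lipid-modified ciliary proteins, the median log2 fold change was −0.06. *Arl3*, a GTPase that releases such cargo in the cilium, had 31.9, 28.4 and 31.4 FPKM on day 10 against 28.1, 29.4 and 34.8 FPKM on day 14, with overlapping days. It was named after its values were seen. The days did not overlap in 1 of the 9, *Cys1*, which encodes the ciliary protein cystin, against 14.3% of all genes. *Cys1* had 0.501, 1.00 and 1.44 FPKM on day 10 against 2.38, 2.63 and 2.12 FPKM on day 14 (log2 fold change 1.30, standard error 0.42, adjusted p = 0.374 by limma). *Arl2bp*, the highest of the list, was at 40.5 ± 6.56 and 38.9 ± 5.69 FPKM (SD, n = 3), and *Unc119b* had a log2 fold change of −0.15.

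In the lists for cilium structure and trafficking, medians stayed close to 0. The 11 other BBSome and chaperonin genes had a median log2 fold change of 0.02, and days that did not overlap in 3 of them (14.3% of all genes), *Mkks* (lower, 4.81 ± 0.375 against 3.40 ± 0.703 FPKM, log2 fold change −0.50, limma adjusted p = 0.538), *Lztfl1* (lower, −0.26) and *Bbs10* (higher, 0.81, from means of 0.175 and 0.358 FPKM). *Arl6* had the highest level of the list at 7.55 and 7.32 FPKM. The 8 other kinesin-2 and dynein-2 subunits had a median of 0.08 and overlapping days throughout, with *Dync2h1* at 0.44, *Wdr34* at −0.34 and *Dync2li1* the highest at 8.86 and 9.10 FPKM. Among 14 transition zone genes, which form the gate at the cilium base, the median was 0.02 and the days did not overlap in 3, with *Tmem67*, *Tmem216* (0.31) and *Tctn2* (0.25) higher, against 7.59% of all genes. *Tmem67* was at 2.71 ± 0.340 FPKM on day 10 and 4.20 ± 0.671 FPKM on day 14 (log2 fold change 0.61, adjusted p = 0.461 by limma), *B9d2* had a log2 fold change of −0.47, and *B9d1* was the highest at 10.8 and 11.2 FPKM. The 10 genes of the basal body had overlapping days throughout and a median of −0.00362, with *Sclt1* at 0.74, *Ccp110* (listed as *6330503K22Rik*) at −0.55 and *Cep83* (listed as *Ccdc41*) the highest at 2.79 and 3.93 FPKM. The 6 trafficking genes had a median of 0.04, and the days did not overlap in 1 of them, *Tulp3* (higher, 0.63), against 14.3% of all genes. *Gpr161* was at −0.56 and *Rab11a* was the highest at 49.9 and 56.1 FPKM. A further list held genes of the polycystin family and of polycystic kidney disease, *Pkd2l2* and *Pkhd1* among them. The 5 that were found had means of at most 0.409 FPKM, far below *Pkd1* and *Pkd2*. Their days did not overlap in 1, *Pkd2l2* (higher, 0.96, from means of 0.224 and 0.595 FPKM), against 14.3% of all genes.

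Genes of ciliary signalling and cilium disassembly were read next. Among 8 Hedgehog transduction genes the median log2 fold change was −0.38 and the days did not overlap in 3, *Ptch1*, *Kif7* (−1.27) and *Sufu* (−0.21), all lower on day 14, against 6.67% of all genes. *Ptch1*, the receptor and itself a target of the pathway, had 5.88, 5.76 and 3.73 FPKM on day 10 against 2.08, 2.67 and 1.14 FPKM on day 14 (log2 fold change −1.39, standard error 0.36, limma adjusted p = 0.312). *Smo*, the transducer, was the highest of the list at 18.3 ± 1.97 and 21.2 ± 3.27 FPKM (SD, n = 3; log2 fold change 0.21). Of 8 genes linked to cilium disassembly, 3 had an unadjusted p under 0.05, all lower on day 14, against 4.40% of all genes, and *Nek2* had the smallest p (2.22 ± 0.363 against 0.898 ± 0.193 FPKM, log2 fold change −1.22, adjusted p = 0.333 by limma). The others were *Aurka* (−1.06) and *Plk1* (−1.22, with overlapping days), and all 3 are mitotic kinase genes. *Nedd9*, the highest of the list, was at 27.5 and 30.5 FPKM. Beside this, 7 of 8 proliferation markers (6.67% of all genes) had lower values in every day 14 sample than in any day 10 sample, and their summed level was 39.8 to 63.3 FPKM on day 10 and 25.3 to 32.3 FPKM on day 14. *Bub1* had a log2 fold change of −1.34 (adjusted p = 0.319 from limma) and *Birc5*, the highest, was at 12.7 and 7.25 FPKM. The part of cell division in the values of the cilium genes was not tested.

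RFX factors were expressed at low levels. Of 6 genes, *Rfx2* was the highest with 1.66, 2.60 and 2.09 FPKM on day 10 against 2.78, 4.11 and 5.02 FPKM on day 14, with days that did not overlap (log2 fold change 0.86, standard error 0.31, limma adjusted p = 0.422). The days did not overlap for *Rfx5* (higher, 0.31) and *Rfx7* (lower, −0.10) either, so for 3 of the 6, against 14.3% of all genes. Which of the 6 act on ciliary genes in these cells was not tested. *Rfx4* had a log2 fold change of −0.94 on a mean below 0.5 FPKM on both days. Genes of motile cilia were read as well, although RNA levels do not show what kind of cilium the cells carried. Of 14 such genes, 12 had a mean of at most 1 FPKM and the median of their means was 0.201 FPKM. The highest was *Rsph9*, at 4.35 ± 1.29 and 4.48 ± 0.968 FPKM (SD, n = 3), and *Rsph1* followed with a mean of 1.62 FPKM over the 6 samples. Both means were above those of the members *Ift88* and *Bbs1*. *Ccdc39* (log2 fold change 1.00) and *Dnaic1* (−1.12) had the smallest p in each direction, and both stayed below 0.7 FPKM in all 6 samples.

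**Figure D4:**
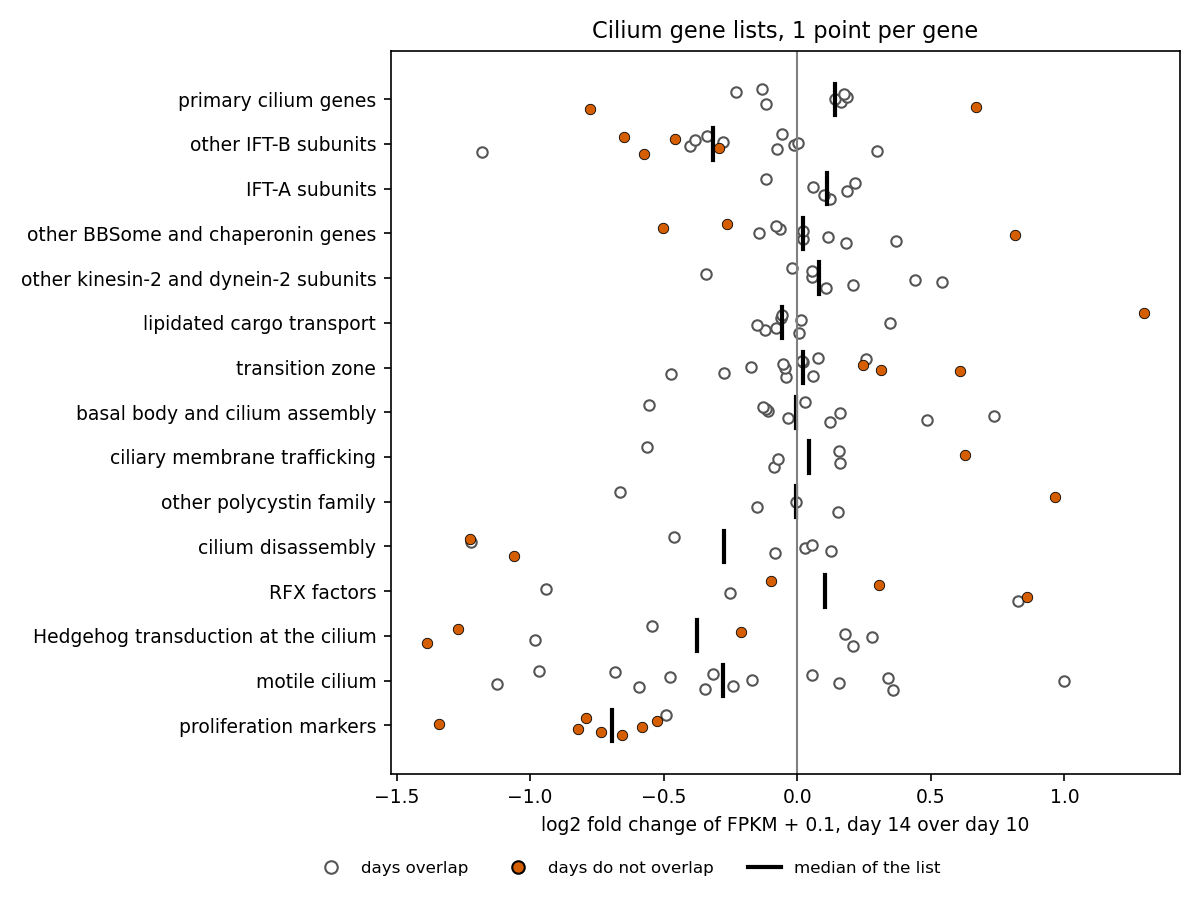
Log2 fold change of FPKM + 0.1 between day 14 and day 10 for 9 primary cilium genes, the other cilium gene lists, the motile cilium genes and the proliferation markers, with 1 point per gene, filled where the days did not overlap, and a black bar at the median of each list. The other IFT-B subunits lie mostly below 0 (median −0.31), the proliferation markers are all below 0 (median −0.69), and most other lists straddle it.

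Markers of other cells were read in the same samples. The 7 endothelial markers summed to 1.62 to 3.43 FPKM on day 10 and to 4.62 to 7.77 FPKM on day 14, with *Esam* (log2 fold change 1.83, adjusted p = 0.374 by limma) having the smallest p and *Tek* the highest level. The 5 skeletal muscle markers summed to 2.00 to 9.16 FPKM on day 10, the highest of these from *Acta1* in replicate 1, and to 0.275 to 2.79 FPKM on day 14, and the 5 adipocyte markers to 8.88 to 17.3 and 15.2 to 30.8 FPKM, nearly all from *Fabp4*. None of the markers in these lists, or in the chondrocyte and myeloid lists, was at 0 in all 6 samples. The endothelial sum was the only one of the 5 lists with days that did not overlap. It rested on low values, with a mean above 1 FPKM in only 2 of the 7 genes and a median of their means of 0.581 FPKM. Its part in the values of the cilium genes was not tested.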

How the data were processed

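RNA-seq values of sorted ECFP+ OBs were analysed for 3 samples per day. The authors sequenced 75 bases from a single end, aligned the reads to mm10 by TopHat2 2.0.13, Bowtie2 2.2.3 and SAMtools 0.1.19, and deposited 1 FPKM value per gene from Cufflinks 2.2.1 (versions also in the submitters' processing notes). The gene annotation and the use of strand are not given in the sources used here. In 1 file, 25 symbols that had become dates were restored by position.

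Genes with a mean above 0.1 FPKM (19526) were compared on log2(FPKM + 0.1) with limma 3.58.1 in R 4.3.3 (lmFit, eBayes with a mean-variance trend, the day as the only factor) and Benjamini-Hochberg adjustment over all of them, after a check on simulated data. P-values set the day difference against the spread between these samples, which limma moderates with the mean-variance trend over all genes tested. The labels call the samples biological replicates. Reads were estimated from steps of values up to 0.3 FPKM in 1-transcript genes of 1500 to 8000 bases, where 74.9% to 79.3% of values lay within 0.1 of a whole number. Coordinates and exons came from GENCODE vM21. Older symbols were matched through RefSeq synonyms, and 1 of 106 other cilium genes was not analysed here. Members and lists were chosen with earlier results of these data known. Of the 10 members 1, and of the other lists 1 gene, are not reported here. The other 9 members are named, and from each cilium list the gene with the smallest p in each direction and the gene with the highest mean. Other genes named for their days or as examples were chosen after their values were seen, and the chondrocyte and myeloid markers are given as sums. Alternatives were other pseudocounts, filters, scalings and variance models, a replicate block, and leaving out each sample (the filter was then applied to the samples left).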

Additional observations from a re-analysis of the deposited data

How the results depend on the processing

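Under 14 other settings, limma gave none of the 9 described primary cilium genes and no other cilium gene an adjusted p under 0.05, and the lowest value for a member was 0.198 (*Ift20* without day 14 replicate 2). *Ift20* kept an unadjusted p under 0.05 in all 14, which draw on the same 6 samples, and no other described member had one in any. In the main fit, 10.0% of all genes had an unadjusted p under 0.05. Of 124 refits of single members, 120 kept their direction. The sign turned only when a sample was left out, for *Bbs4* without day 10 replicate 2 (range over the samples left out −0.40 to 0.019), for *Ift88* without day 10 replicate 3 or day 14 replicate 3 (range −0.33 to 0.24, with 0.068 for the latter) and for *Kif3b* without day 14 replicate 1 (range −0.045 to 0.37). The days of these 3 genes overlapped, and the cause was not tested. Over all genes tested, the number with an adjusted p under 0.05 was 3, and it ranged from 3 to 76 when a sample was left out. It was 5 without day 10 replicate 2, 6 without day 10 replicate 3, 6 without day 14 replicate 1 and 76 without day 14 replicate 2. For this last setting, counts of genes with days that did not overlap were added after the data were seen. They were 5586 of all genes and 28 of the 105 other cilium genes, where fewer samples make non-overlap easier. Deviations of same-numbered samples correlated at 0.0580, −0.00584 and 0.0887 across genes, so the numbers were not taken as pairs, and with the replicate block 2 of all genes and 0 of the members had an adjusted p under 0.05. No scaling moved the median of all genes by more than 0.05 on the log2 scale. *Ift88* and *Bbs1* had a mean below 1 FPKM, and the precision of both is limited by depth.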
